A study of Mus musculus with 4 samples.

Results

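The 39 genes described here drive or mark the division of cells, and were taken by name from the per-gene read tables of 4 kidney libraries, which list 38924 genes. All 39 were found. They were divided by textbook role into 16 genes of the G1/S transition and of DNA replication, called S phase genes below, and 23 genes of late S phase, G2 and mitosis, called mitotic genes. All kidneys came from female mice of the CB-17 SCID strain, which has a Balb/c background and no functional B or T cells. The 2 saline libraries came from mice given saline, and the 2 immune complex libraries from mice given preformed complexes of IgG and IgA1 poor in galactose (IgG-Gd-IgA1), which serves as autoantigen in IgA nephropathy. Either was injected into the tail vein 3 times within 7 days, and a piece of kidney was taken 1 day after the last dose. The sources used here do not give the ages of the mice. Nor do they say whether the kidneys of a group came from separate animals, and p-values therefore reflect the spread between these samples only, which may be technical.

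Cells that enter division pass through ordered waves of transcription. At the G1/S transition the E2F factors, freed from the retinoblastoma protein, switch on cyclin E, the enzymes of nucleotide synthesis and the proteins that load and fire replication origins. Later, the DREAM and MuvB complexes with B-Myb and FOXM1 govern the genes of mitosis through a promoter element called the cell cycle homology region, often beside CCAAT boxes bound by NF-Y. The adult kidney divides slowly at rest, while tubule cells re-enter the cycle after injury and mesangial cells, which hold the glomerular capillaries together, can proliferate in IgA nephropathy.

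Promoter sequences of both sets differed in letters that were not themselves used to choose the genes. These letters belong to the elements and factors named above for genes of such roles, so the difference is no independent test of the division. RefSeq windows on GRCm38.p6, from 250 bases before to 50 bases after a gene start, were at hand for 31 of the 39 genes. The letters TTTGAA, the core of the cell cycle homology region, lay on either strand in 13 of 18 mitotic windows (72.2%), in 2 of 14 S phase windows (14.3%, with 13 genes and 2 windows for Mcm7) and in 17.9% of all 32851 windows. E2F-like letters (TTTCCCGC, TTTGGCGC, TTTCGCGC or TTTGCCGC, either strand) lay in 5 of 14 S phase windows (35.7%), in 1 of 18 mitotic windows (5.56%, the Cdk1 window) and in 2.26% of all. The S phase windows with them belong to Mcm3, Mcm5, Mcm6, Mcm7 and Cdc6. CCAAT, on either strand, lay in 16 mitotic (88.9%) and 10 S phase windows (71.4%) against 37.4% of all, and 11 mitotic windows (61.1%) held it at least 2 times against 11.7% of all. All 13 mitotic windows with TTTGAA also held CCAAT (72.2% against 6.95% of all windows). These matches are descriptions of letters, not of bound sites. The TTTCGCGC and TTTGGCGC matches can overlap, as they do in both S phase promoters shown.

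Below are the 160 bases before the start of 3 mitotic genes with the cell cycle homology letters and of 2 MCM genes with E2F-like letters, each 5′ to 3′ on the gene's strand. Capitals mark the cell cycle homology letters, CCAAT boxes and the E2F-like letters on either strand. The Mki67 stretch lies at chr7:135716380-135716539 (minus strand), Top2a at chr11:99024190-99024349 (minus), Kif11 at chr19:37376222-37376381 (plus), Mcm6 at chr1:128359706-128359865 (minus) and Mcm5 at chr8:75109349-75109508 (plus).
Mki67: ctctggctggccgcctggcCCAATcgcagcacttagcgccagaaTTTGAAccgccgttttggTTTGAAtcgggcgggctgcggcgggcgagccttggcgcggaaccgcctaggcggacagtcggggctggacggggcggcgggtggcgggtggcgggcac
Top2a: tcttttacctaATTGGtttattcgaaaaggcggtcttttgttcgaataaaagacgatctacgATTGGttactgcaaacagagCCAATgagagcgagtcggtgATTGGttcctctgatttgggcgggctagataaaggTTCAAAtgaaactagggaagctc
Kif11: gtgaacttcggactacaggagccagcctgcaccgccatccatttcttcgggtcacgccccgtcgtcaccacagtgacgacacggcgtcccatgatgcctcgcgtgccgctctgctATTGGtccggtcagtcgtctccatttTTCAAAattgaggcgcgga
Mcm6: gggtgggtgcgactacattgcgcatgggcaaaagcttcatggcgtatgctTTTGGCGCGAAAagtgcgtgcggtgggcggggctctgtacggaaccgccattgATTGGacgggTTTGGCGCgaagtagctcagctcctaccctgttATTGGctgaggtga
Mcm5: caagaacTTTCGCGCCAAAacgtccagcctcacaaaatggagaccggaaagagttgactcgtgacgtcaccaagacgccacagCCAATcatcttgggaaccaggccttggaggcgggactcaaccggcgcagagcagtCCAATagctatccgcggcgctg

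Depth and tissue were checked first, and values given as a run of 4 stand for saline 1, saline 2, immune complex 1 and immune complex 2. Total gene reads were 19675879 to 22791960 per library, and abundant epithelial markers of kidney were present in all 4, with Umod of the thick ascending limb between 3949 and 5748 CPM (read counts relative to library size, scaled by TMM) and Slc34a1 of the proximal tubule between 2438 and 3714 CPM. The T cell receptor complex genes Cd3e, Cd3d and Cd3g had 0 to 3 reads per library, while Cd4 and Cd8a, which other cells can also express, had 15 to 34. Immune complex 2 stood apart from the other 3 libraries in the mitotic genes, so mitotic results are also given without it. In whole kidney tissue, fewer cells of a type and less RNA per cell cannot be told apart.

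Division genes were scarce in these kidneys, and S phase genes were more abundant than mitotic ones. On the authors' RPKM scale (reads relative to exon length and library size), the median S phase gene stood at 1.5 and the median mitotic gene at 0.306 as means over 4 libraries, against 3.77 for all 16334 genes with enough reads to be tested. The highest level belonged to Pcna, the sliding clamp of DNA polymerase, at 15.1 RPKM. It was followed by Rrm1, the large subunit of ribonucleotide reductase, at 4.65 RPKM, and by the helicase subunits Mcm2 and Mcm7 at 4.32 and 4.18 RPKM. These 4 were the only members above the median of tested genes. All 23 mitotic genes lay under the lower quartile of tested genes (0.866 RPKM), from Cdc20 at 0.866 RPKM, just below it, to Bub1 at 0.0567 RPKM. Mki67 and Top2a, a pair of widely used proliferation markers, stood at 0.272 and 0.274 RPKM, at the percentiles 13.2 and 13.2 of tested genes. In reads, the median mitotic gene had 33.5 and the median S phase gene 99.8 per library, so single mitotic genes carry wide counting error.

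**Figure D1:**
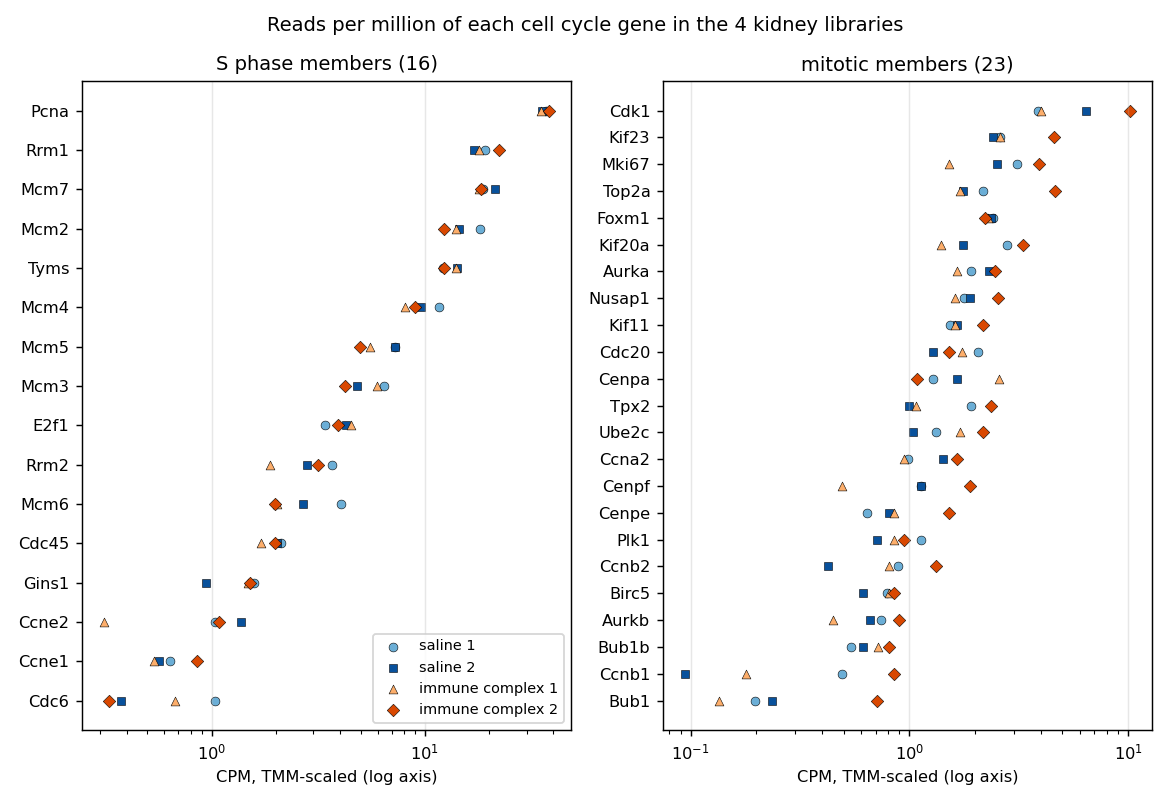
Level (TMM-scaled CPM, log axis) of the 16 S phase and 23 mitotic genes, one point per library, ordered by mean level. Immune complex 2 (dark orange diamonds) is the highest library for 19 of 23 mitotic genes and for 3 of 16 S phase genes.

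No cell cycle gene passed the comparison of immune complex with saline kidneys. Of the 39 genes, 38 had enough reads to be tested and Bub1 did not. With edgeR's quasi-likelihood test and Benjamini-Hochberg adjustment at 0.05, 0 of 38 were called, where the background over all 16334 genes was likewise 0% (0 genes). The adjusted p of all 38 was 1.0, and none had an unadjusted p under 0.05, against 749 genes in all (4.59%). The smallest unadjusted p was 0.0719, for Mcm6. DESeq2 called 100 genes (0.612%) and limma-voom 0 (0%), none of them members. The authors' deposited table calls 80 of 16128 genes (0.496%) and lists 37 of the members, without Ccnb1 and Bub1. None of those 37 is called there, and 6 have no adjusted p. The smallest p of a member in the authors' deposited table is 0.143, again for Mcm6. The log2 fold changes of members in the authors' deposited table, turned to immune complex over saline, run from -0.31 (Mcm6) to 0.23 (Top2a). On the same reads, DESeq2 as run here gave -0.75 for Mcm6 and 0.69 for Top2a. The sizes of the deposited values are thus not comparable with those given here, and why they differ was not tested. The median standard error of a log2 fold change was 0.30 for S phase and 0.46 for mitotic genes, against 0.24 for all tested genes. Small differences were thus not detectable at this depth and number of libraries, and large ones could go uncalled too. Over all tested genes, edgeR log2 fold changes ran from -4.24 to 4.83, and none was called.

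The S phase set had 11 of 16 genes lower and 5 higher in immune complex kidneys, with a median log2 fold change of -0.16. The mitotic set had 16 of 22 tested genes higher and 6 lower, with a median of 0.24. All tested genes had a median of 0.01, with 8481 higher (51.9%) and 7853 lower (48.1%). Saline and immune complex libraries did not overlap for 6 S phase genes (Mcm2, Mcm4, Mcm5, Mcm6, Mcm7 and Cdc45), all lower with immune complex, where the background of that direction was 14.6%. In the mitotic set 4 genes (Ube2c, Cenpe, Birc5 and Bub1b) were higher in both immune complex libraries than in both saline ones. The background of that direction was 15.4%, and Foxm1 was lower in both immune complex libraries. Counting either direction, the groups were apart for 11 of 38 tested members (28.9%), against 30.0% of all tested genes. By set this held for 6 of 16 S phase genes (37.5%) and 5 of 22 mitotic genes (22.7%). The members were thus not apart more often than tested genes in general. The difference between the medians of both sets was -0.40 on the log2 scale, and it was -0.01 without immune complex replicate 2. With any of the other 3 libraries left out it lay between -0.60 and -0.46.

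**Figure D2:**
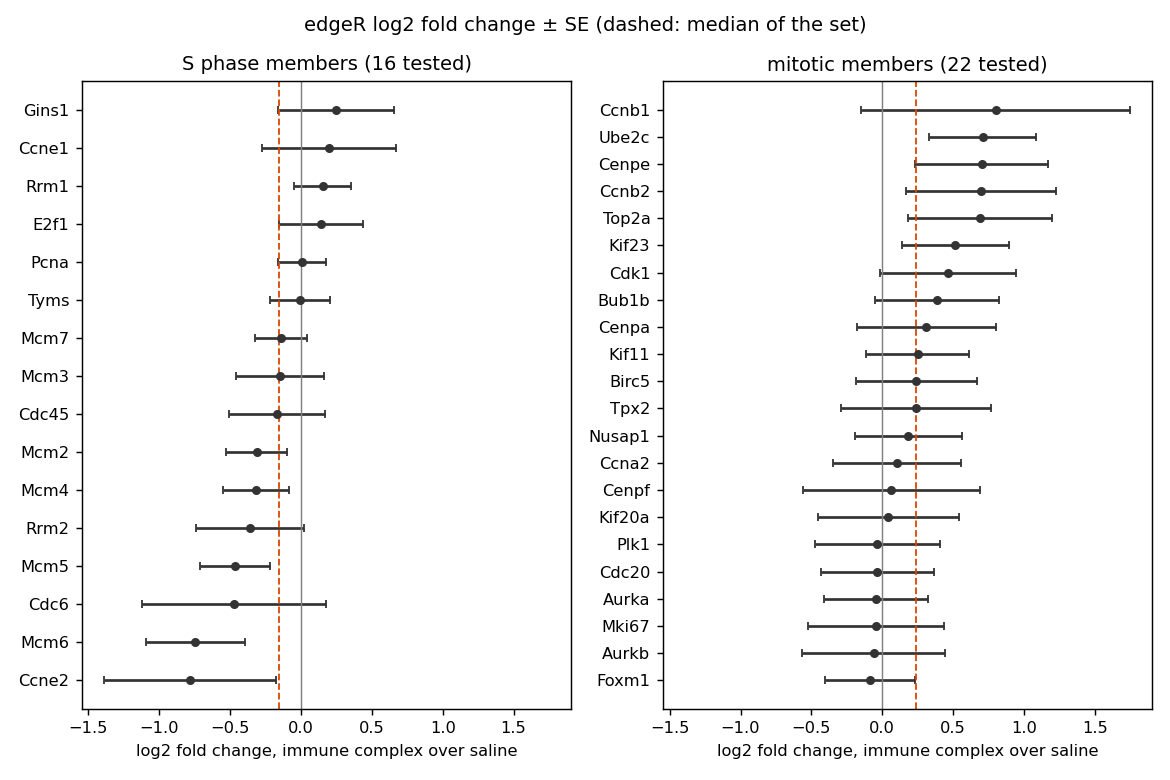
Log2 fold change of immune complex over saline with its standard error (edgeR, 2 libraries per group) for the 16 S phase and 22 mitotic genes tested, with the median of each set dashed at -0.16 and 0.24. Mcm6 and Ccne2 lie lowest and Ccnb1 highest, and no gene passed adjustment.

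The MCM genes, which encode the 6 subunits of the replicative helicase, were the S phase group with one direction. All 6 had lower means in immune complex kidneys, and for 5 of them (all but Mcm3) the groups did not overlap. Of all tested genes, 14.6% had groups apart in this direction. Their summed level was 66.2 and 60.0 CPM in the saline pair, against 53.4 and 50.7 CPM in immune complex 1 and 2. All 6 stayed lower with every scaling, filter, read type, tool and block tried, and without saline replicate 2 or immune complex replicate 1. Mcm3 turned to 0.07 without saline replicate 1 and to 0.08 without immune complex replicate 2.

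Mcm6 (chromosome 1, 128331591 to 128359656, GRCm38) stood at 4.03 and 2.70 CPM with saline and 2.02 and 1.98 CPM with immune complex. Saline 1 was the highest of the 4, and both immune complex libraries lay close together below saline 2. Its log2 fold change was -0.75 ± 0.35 (SE, n = 2 each; edgeR adjusted p = 1.0), and -0.43 without saline replicate 1. Mcm5 (chromosome 8, 75109528 to 75128439) stood at 7.23 and 7.24 CPM with saline and 5.51 and 4.96 CPM with immune complex, a log2 fold change of -0.47 ± 0.25. It was the MCM gene with the closest saline pair, and with single libraries left out it ranged from -0.54 to -0.39. Mcm2, often used as a histological marker of cells licensed to replicate, stood at 18.1, 14.4, 13.9 and 12.2 CPM in saline 1, saline 2, immune complex 1 and immune complex 2. Its log2 fold change was -0.31 ± 0.22, and it ranged from -0.48 to -0.14 with either saline library left out. Mcm4 stood at 11.7 and 9.60 CPM with saline and 8.07 and 9.03 CPM with immune complex (-0.32 ± 0.23, and -0.17 without saline replicate 1). Both genes were highest in saline 1 and kept the groups apart by less than the gap within the saline pair. Mcm7 stood at 18.6 and 21.2 CPM with saline and 17.9 and 18.2 CPM with immune complex. In Mcm6 and Mcm7, too, the groups were apart by less than the gap within the saline pair. Mcm3 ranged from 4.21 to 6.44 CPM over the 4 libraries. Mcm7 overlaps Cops6 and Ap4m1 on the opposite strand in GENCODE M21. Cops6 had 1721 to 2206 reads per library, and whether the counting used strand is not known.

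Genes of the clamp and of nucleotide supply overlapped between groups. Pcna stood at 37.1 and 35.5 CPM with saline and 34.9 and 38.2 CPM with immune complex (log2 fold change 0.01 ± 0.17), so its groups overlapped fully. Only 39.9% of its reads were placed at 1 location, and the tables list pseudogenes of Pcna, so its level is uncertain. Rrm1 ranged from 16.9 to 22.2 CPM and Tyms, thymidylate synthase, from 12.2 to 14.2 CPM. Rrm2, the small reductase subunit that is made mainly in S phase, stood at 3.69 and 2.79 CPM with saline and 1.88 and 3.17 CPM with immune complex. Immune complex 1 was the lowest and the log2 fold change was -0.36 ± 0.38 (-0.78 without immune complex replicate 2, -0.03 without immune complex replicate 1). Per length, Rrm1 exceeded Rrm2 by 3.65-fold and 4.10-fold in the saline pair, and by 6.59-fold and 4.74-fold in the immune complex pair.

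Genes that load and fire origins and the E cyclins had few reads, while E2f1 had more. Cdc6, which loads the helicase, had 21 and 8 reads in saline and 15 and 7 with immune complex, and its groups overlapped. Cdc45 and Gins1, parts of the active helicase, stood between 1.70 and 2.12 CPM and between 0.946 and 1.57 CPM. Ccne1, cyclin E1, had 13, 12, 12 and 18 reads in saline 1, saline 2, immune complex 1 and immune complex 2 (log2 fold change 0.20 ± 0.47, and -0.16 without immune complex replicate 2). Ccne2, cyclin E2, had 21, 29, 7 and 23 reads. The low count lay in immune complex 1 alone, and the log2 fold change of -0.78 ± 0.61 was -0.15 without that library and -1.92 without the other immune complex library. A share of 32.5% of Ccne2 reads lay in introns, and Ints8 overlaps it on the opposite strand. E2f1, the transcription factor that starts the S phase programme, stood at 3.39 and 4.26 CPM with saline and 4.53 and 3.92 CPM with immune complex (0.14 ± 0.30), with overlapping groups.

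Mitotic genes were highest in one of the immune complex libraries. Their summed level was 36.3 and 34.7 CPM in the saline pair, 31.7 CPM in immune complex 1 and 54.6 CPM in immune complex 2. Immune complex 1 was thus the lowest and immune complex 2 the highest of the 4. Over all genes, these libraries were also the extremes of read placement: intron reads made up 8.29%, 8.90%, 9.96% and 7.39%, and reads with 1 location 84.2%, 84.0%, 83.4% and 85.0%. The part of read placement in the mitotic levels was not tested beyond the exon counts given below. Of the 23 genes, 19 were highest in immune complex 2, and of the 22 tested 18 were (81.8%), whereas 33.5% of all tested genes were. The median mitotic gene stood in immune complex 2 at 1.60-fold the mean of the other 3 libraries, against 0.956-fold for S phase genes and 0.990-fold for all tested genes. The same fold was 0.895 for saline 1, 0.803 for saline 2 and 0.779 for immune complex 1. Without immune complex replicate 2 the mitotic median log2 fold change was -0.15, with 9 genes higher and 13 lower, and without immune complex replicate 1 it was 0.49, with 20 higher and 3 lower. No member was called in either case, and the smallest adjusted p of a member was 0.521 and 0.203 there.

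**Figure D3:**
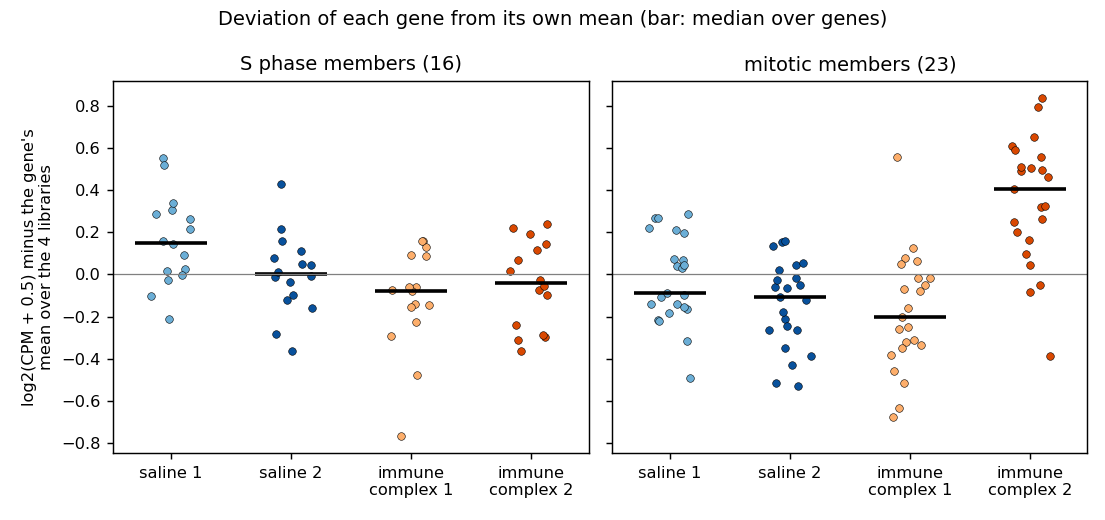
Each point is one gene's log2(CPM + 0.5) minus its own mean over the 4 libraries, and bars are medians over genes. The mitotic median is 0.41 in immune complex 2 and lies between -0.20 and -0.09 in the other 3 libraries, while S phase medians lie between -0.08 and 0.15.

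The balance between the sets showed the same library. Reads on mitotic genes made up 19.7% (95% Wilson interval 18.4% to 21.0%) and 19.98% (18.7% to 21.3%) of all member reads in saline 1 and 2. They made up 19.4% (18.2% to 20.7%) in immune complex 1 and 28.6% (27.3% to 30.1%) in immune complex 2. The first 3 intervals overlap each other and none reaches the interval of immune complex 2. Such intervals hold counting error at most. Without molecular identifiers reads are not independent molecules, so the intervals may be too narrow even for that. They compare libraries, not treatments. With exon reads alone the shares were 17.0%, 15.6%, 15.5% and 23.1%, and without Cdk1 they were 17.96%, 16.9%, 17.4% and 24.6%.

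**Figure D4:**
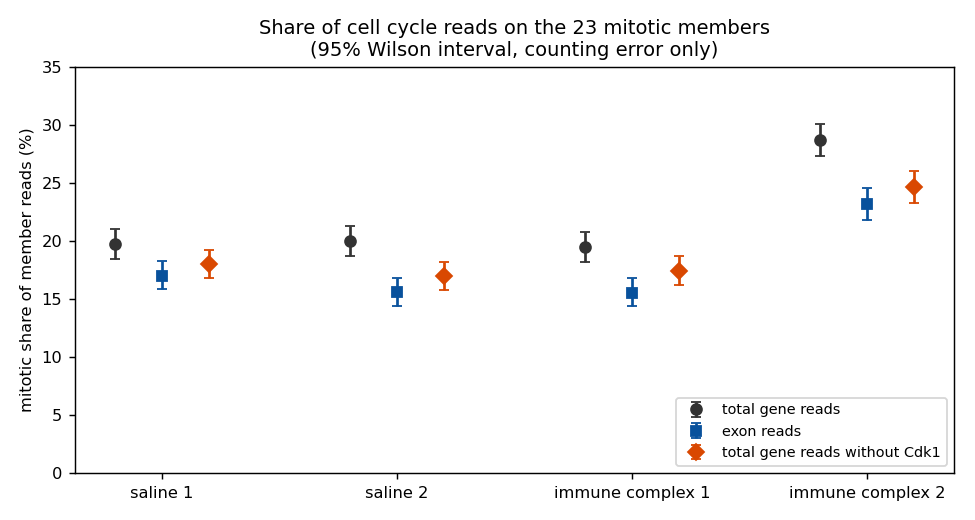
Mitotic share of member reads (%) in each library with 95% Wilson intervals, from total gene reads, exon reads and total reads without Cdk1. All 3 counts put immune complex 2 above the other libraries, at 28.6%, 23.1% and 24.6%.

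The mitotic cyclins had few reads, and their kinase had few in exons. Cdk1 (chromosome 10, 69336635 to 69352938), the kinase that drives entry into mitosis, had the most reads of the mitotic genes. It stood at 3.89 and 6.39 CPM with saline and 3.99 and 10.2 CPM with immune complex (log2 fold change 0.46 ± 0.48, and -0.37 without immune complex replicate 2). However, 77.6% of its reads lay in introns. Its exon reads were 29, 32, 22 and 33 in saline 1, saline 2, immune complex 1 and immune complex 2, while its intron reads were 50, 103, 67 and 183. With exon reads its log2 fold change was -0.19. The height of Cdk1 in immune complex 2 therefore lay in its introns, and no other GENCODE M21 gene overlaps it. Ccnb1, cyclin B1, had 10, 2, 4 and 18 reads (0.80 ± 0.95, and -0.68 without immune complex replicate 2), with 67.6% placed at 1 location. Ccnb2, cyclin B2, had 18, 9, 18 and 28 reads, and Ccna2, cyclin A2, had 20, 30, 21 and 35. All 3 cyclins were highest in immune complex 2, and their groups overlapped. Without immune complex replicate 2, the log2 fold change of Ccnb2 went from 0.70 to 0.30 and that of Ccna2 from 0.11 to -0.35.

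**Figure D5:**
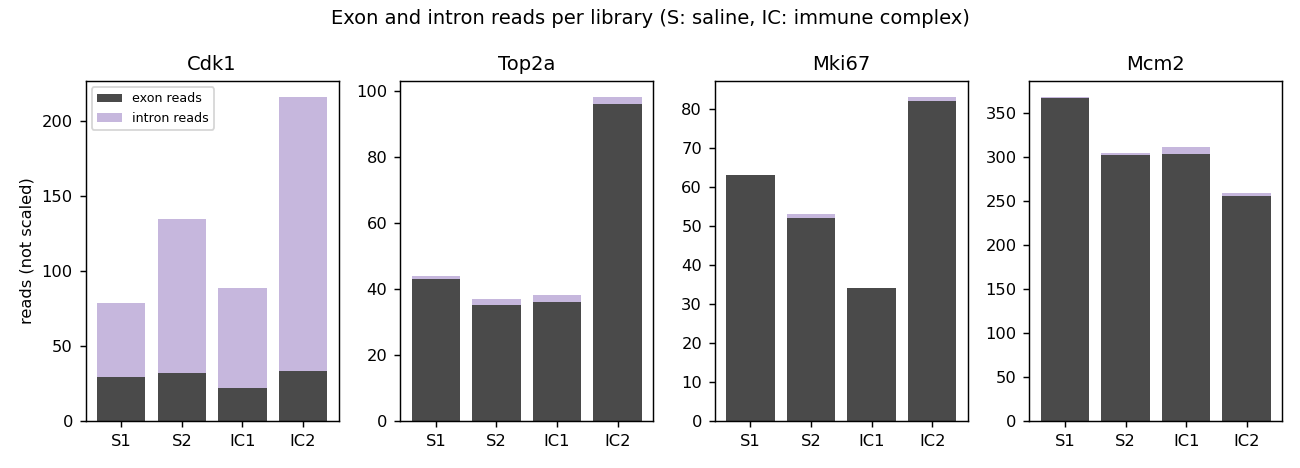
Exon reads (dark) and intron reads (light) of Cdk1, Top2a, Mki67 and Mcm2 in saline (S) and immune complex (IC) libraries, not scaled for depth, each panel on its own axis from 0. Cdk1 reads are mostly intronic and reach 183 intron reads in immune complex 2, while the other 3 genes are read almost fully in exons.

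Top2a and Mki67, read almost only in exons, both had their highest level in immune complex 2. Top2a (chromosome 11, 98992943 to 99024189), the topoisomerase that untangles sister chromosomes, stood at 2.16 and 1.75 CPM with saline and 1.70 and 4.63 CPM with immune complex. Immune complex 2 stood at 2.47-fold the mean of the other 3, and the log2 fold change of 0.69 ± 0.51 became -0.20 without it. Mki67 (chromosome 7, 135689788 to 135716379), which encodes the Ki-67 antigen on mitotic chromosomes, stood at 3.10 and 2.51 CPM with saline and 1.52 and 3.92 CPM with immune complex. The immune complex libraries were thus its lowest and its highest, on both sides of the saline pair, and its log2 fold change of -0.04 ± 0.48 became -0.88 without immune complex replicate 2. Foxm1, the transcription factor of the mitotic programme, stood at 2.41, 2.37, 2.29 and 2.22 CPM (-0.08 ± 0.32), a narrow range with immune complex 2 lowest.

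Spindle motors and assembly factors were highest in immune complex 2 for 5 of 5 genes, with a summed level of 10.6 and 8.70 CPM with saline and 8.29 and 15.0 CPM with immune complex. Kif23, a kinesin of the cleavage midzone, stood at 2.61, 2.41, 2.60 and 4.58 CPM, so 3 libraries lay close together and immune complex 2 stood at 1.80-fold their mean. Kif20a, another kinesin of late mitosis, stood at 2.80, 1.75, 1.39 and 3.31 CPM, and Tpx2, the activator of Aurora A, at 1.92, 0.993, 1.08 and 2.36 CPM. For both, saline 1 was closer to immune complex 2 than to the other libraries. Nusap1, which bundles spindle microtubules, ranged from 1.61 to 2.55 CPM. Kif11, the motor that separates the spindle poles, ranged from 1.52 to 2.17 CPM. Of Kif11 reads 52.7% lay in introns and 61.5% had 1 location, and GENCODE M21 places processed pseudogenes inside it. Without immune complex replicate 2, 2 of these 5 genes were higher and 3 lower: Kif23 went from 0.51 to 0.05, Kif20a from 0.04 to -0.71 and Tpx2 from 0.24 to -0.43 on the log2 scale.

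Checkpoint and degradation genes had the tested mitotic gene with the lowest p. Ube2c, the ubiquitin-conjugating enzyme of the anaphase-promoting complex, had 27 and 22 reads with saline and 38 and 46 with immune complex, or 1.33, 1.04, 1.70 and 2.17 CPM. Both immune complex libraries lay above both saline ones, and the log2 fold change was 0.71 ± 0.38 (unadjusted p = 0.106, edgeR adjusted p = 1.0). With single libraries left out it ranged from 0.52 to 0.89. Cdc20, an activator of the same complex, stood at 2.07, 1.28, 1.75 and 1.51 CPM, with overlapping groups. The checkpoint kinase gene Bub1 had 4, 5, 3 and 15 reads, and Bub1b, which encodes BubR1, had 11, 13, 16 and 17.

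Centromere genes did not share one pattern. Cenpe, a kinetochore motor, stood at 0.639, 0.804, 0.851 and 1.51 CPM (0.70 ± 0.47, and 0.23 without immune complex replicate 2). Cenpf, a kinetochore protein of G2 and mitosis, stood at 1.13 and 1.14 CPM with saline and 0.493 and 1.89 CPM with immune complex, below and above the saline pair (0.07, and -1.19 without immune complex replicate 2). Cenpa, the histone variant that marks centromeres, had the opposite order of the immune complex libraries. It stood at 1.28, 1.66, 2.55 and 1.09 CPM, highest in immune complex 1 and lowest in immune complex 2. Among mitotic kinases and their partners, Aurka ranged from 1.66 to 2.46 CPM, Aurkb from 0.448 to 0.898 CPM, Plk1 from 0.710 to 1.13 CPM and Birc5, or survivin, from 0.615 to 0.851 CPM. Aurka, Aurkb and Birc5 were highest in immune complex 2 and Plk1 in saline 1.

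Read placement bears on how far single genes can be trusted. Of the 39 genes, 30 had under 20% of their reads in introns and 32 had over 90% placed at 1 location. In the mitotic set, 11 genes met both limits, and 8 of these were highest in immune complex 2. Their summed level was 17.6, 14.8, 15.2 and 23.1 CPM in saline 1, saline 2, immune complex 1 and immune complex 2. With exon reads 18 of 23 mitotic genes were highest in immune complex 2. Besides Mcm7 and Ccne2, protein-coding genes overlap Cdc45, Ccna2, Cdc20, Kif20a, Nusap1 and Ube2c on the opposite strand and Foxm1 on the same strand in GENCODE M21.

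Wider lists of the cell cycle were looked at beside the members. None of their genes was called. Of 36 tested other S phase genes 12 were higher and 24 lower (median -0.07), and of 38 tested other mitotic genes 19 were higher and 19 lower (median 0.01). The other mitotic genes were highest in immune complex 2 for 17 of 38 (44.7%, against 33.5% of all tested genes). Their summed level was 160.1 and 177.3 CPM with saline and 150.8 and 182.9 CPM with immune complex. Immune complex 2 was again the highest library, yet only slightly above saline 2. Spc25, the most abundant gene of this list, was itself highest in saline 2, at 29.0, 38.0, 33.1 and 31.9 CPM. The S phase genes with the lowest p were Gins3, a subunit of the active helicase, at 3.94, 3.69, 1.93 and 2.46 CPM (-0.80 ± 0.32), Lig1, the ligase that joins Okazaki fragments, at 10.7, 9.32, 7.21 and 6.52 CPM (-0.54 ± 0.23), and Cdc7, a kinase of origin firing, with 17, 17, 35 and 24 reads (0.72 ± 0.41, and 0.47 without immune complex replicate 1). The groups of these 3, chosen for their low p, did not overlap, as for 10 of the 36 tested genes of that list (27.8%) against 30.0% of all tested genes. The mitotic ones were Kif15 (0.72 ± 0.43) and the condensin genes Ncapg (0.60 ± 0.40) and Ncaph (0.57 ± 0.38), with 13 to 29 reads per library. Kif15 stood at 0.43 without immune complex replicate 2, Ncapg at 0.65 and Ncaph at 0.53. Of Kif15 and Ncapg reads 83.5% and 61.4% lay in introns.

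Genes of G1 and of cell cycle arrest were looked at next. Ccnd1, cyclin D1, which helps to carry cells through G1, stood at 279.8 and 281.8 CPM with saline and 312.1 and 260.9 CPM with immune complex (0.03 ± 0.18). The list of G1 cyclins, their kinases and the RB family had 10 genes higher and 8 lower (median 0.03), and its lowest p belonged to Lin52, a MuvB subunit (0.38 ± 0.22), E2f5 (0.27 ± 0.20) and Ccnd2. Without immune complex replicate 2, Lin52 stood at 0.15 and E2f5 at 0.12. Ccnd2, cyclin D2, stood at 14.1, 14.1, 12.7 and 22.2 CPM (0.30 ± 0.29, and -0.15 without immune complex replicate 2). All 3 of these genes were highest in immune complex 2.

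Of 15 tested inhibitor and arrest genes 8 were higher and 7 lower (median 0.05), and 2 had an unadjusted p under 0.05, against 4.59% of all genes. Cdkn2c, the p18 inhibitor of CDK4 and CDK6, stood at 8.90 and 12.9 CPM with saline and 20.8 and 16.1 CPM with immune complex (0.76 ± 0.26, edgeR adjusted p = 0.974). Both immune complex libraries lay above both saline ones, and the value ranged from 0.51 to 1.04 with single libraries left out. Cdkn1a, the p21 inhibitor, stood at 12.9, 12.1, 19.4 and 15.2 CPM (0.47 ± 0.22, adjusted p = 1.0 in edgeR, and 0.28 without immune complex replicate 1), also with groups apart. The groups were apart for 6 of the 15 tested genes of this list (40%), 3 higher and 3 lower with immune complex, against 30.0% of all tested genes. In Cdkn2c and Cdkn1a immune complex 1 was the highest library, as in 7 of the 15 tested genes of this list (46.7%, against 29.9% of all tested genes). Another 3 genes of the list, Cdkn1b, Mdm2 and Ccng1, were highest in immune complex 2. Cdkn2b, the p15 inhibitor, stood at 12.1 CPM in saline 1 and between 2.55 and 3.55 CPM in the other 3 libraries. Its log2 fold change of -1.35 ± 0.56 was -0.22 without saline replicate 1. It was -1.99 once saline replicate 2 was left out, where it was called (edgeR adjusted p = 0.00123, and 0.293 to 1.0 under the other alternatives). Cdkn1b, the p27 inhibitor of resting cells, stood at 54.7, 53.3, 44.8 and 60.4 CPM, with overlapping groups (-0.04 ± 0.20).

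Markers of other cells were read in the same libraries, since dividing cells can be of any type. The 11 macrophage markers, all with higher means in immune complex kidneys, summed to 198.5 and 214.3 CPM with saline and 250.5 and 293.2 CPM with immune complex, and 7 of 11 were highest in immune complex 2. The 9 erythroid markers, mostly globin RNA, summed to 676.1 and 578.0 CPM with saline and to 1012 and 1043 CPM with immune complex. Of these, 8 had higher means with immune complex. Slc4a1 went the other way (94.2, 71.5, 56.2 and 64.9 CPM) and is also counted among the collecting duct markers. In the T and NK cell list 6 of 9 genes had higher means with immune complex, at a sum of 3.6 to 5.2 CPM. Havcr1, the injury marker of the proximal tubule, did have its maximum in immune complex 2, at 302.5 CPM against 103.8, 186.4 and 70.8 CPM in saline 1, saline 2 and immune complex 1. The 8 injury markers together summed to 1838, 1930, 2220 and 1833 CPM, a sum made up mostly of Spp1 (osteopontin). The other 7 summed to 226.9, 294.7, 174.9 and 372.2 CPM, an order set by Havcr1. Of the 8 markers, only Havcr1 was highest in immune complex 2, while 3 were lowest there. The 7 markers of mesangial and stromal cells summed to 151.5, 188.2, 203.4 and 177.2 CPM, with overlapping groups. The adipocyte markers summed to 54.6 and 440.8 CPM with saline and 1394 and 1053 CPM with immune complex, and the collecting duct markers to 2209 and 917.0 CPM with saline and 889.5 and 609.2 CPM with immune complex. Most of the collecting duct sum in saline 1 was Aqp2 (1704 CPM). Without Aqp2 the sums were 505, 373, 362 and 307 CPM. The 7 urothelium markers summed to 75.5 and 92.3 CPM with saline against 16.4 and 18.3 CPM with immune complex. In saline 1 this sum was mostly Psca (46.3 CPM) and Upk3b (23.8 CPM), and 5 of the 7 markers were lowest in that library. The part of these cells in the levels of the division genes was not tested.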

How the data were processed

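RNA from a piece of kidney was sequenced in 2 saline and 2 immune complex samples. STAR 2.5.2b, DESeq2 and GRCm38 are named, without roles, in the submitters' processing notes. The read counter, annotation release and use of strand were not given in the sources used here. Per the file headers, the deposited tables hold per-gene raw counts (total gene reads, unique reads, exon reads, intron reads), RPKM values that the authors computed, and lengths in bases. A further deposited table holds the authors' comparison, with log2 fold changes, p-values and adjusted p-values, a test statistic (a score) and a mean signal of scaled counts. Its sign runs from immune complex to saline: for all 80 called genes it is opposite to that of the reads, and it was turned round here.

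Total gene reads (19675879 to 22791960 per library) entered edgeR 4.0.16 under R 4.3.3 (filterByExpr, TMM scaling and the quasi-likelihood test), with all 4 libraries and no block, and Benjamini-Hochberg adjustment over 16334 genes at 0.05. The script was tested on simulated data with a spread between replicates (biological coefficient of variation) of 0.1. That is below the 0.212 fitted to these libraries, so the simulation does not show the power reached here. Each standard error was taken from the log2 fold change and the root of its F statistic. CPM uses TMM-scaled sizes, and deviations use a prior of 0.5 CPM. Alternatives were RLE scaling, no scaling, no filter, exon reads, unique reads, DESeq2 1.42.0, limma-voom (limma 3.58.1), each library left out and a replicate block. The genes and lists were chosen with earlier results of these data known. Named with full statistics are the 6 tested members of lowest p, regulators chosen by role, and the 3 genes of lowest p in each wider list with Cdkn1a, Ccnd1 and Cdkn1b. Symbols were matched by name, and promoter windows are RefSeq's on GRCm38.p6.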

Additional observations from a re-analysis of the deposited data

How the results depend on the processing

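Members called stayed at 0 under all 13 alternatives. Genes called, otherwise 0, numbered 2 without a filter, 1 with unique gene reads, 100 with DESeq2, 55 with the replicate block and 0 to 279 with single libraries left out (47 without saline replicate 1 and 279 without saline replicate 2), where a lone library is assumed to vary like the others. The labels do not say that replicate numbers pair samples. Same-numbered libraries correlated at -0.135 across genes, and a crossed replicate block, chosen after seeing the data, called 160. The S phase summed CPM, at -0.10 (log2 ratio of group means), was -0.17 without scaling and ranged from -0.15 to -0.06 with single libraries left out. The mitotic sum, at 0.28, ranged from -0.16 to 0.62. The median of members, at 0.05, ranged from -0.16 to 0.28, and the S phase minus mitotic difference, at -0.40, from -0.60 to -0.013. Pcna turned to -0.054 without scaling and -0.012 with unique reads, Ccnd1 to -0.033 and -0.018, and Cdk1 to -0.19 with exon reads. With single libraries left out, log2 fold changes turned direction for 10 of 30 named genes, in ranges of -0.88 to 0.49 (Mki67), -0.20 to 1.24 (Top2a), -0.057 to 0.074 (Pcna), -0.16 to 0.49 (Ccne1), -0.37 to 0.99 (Cdk1), -0.68 to 2.36 (Ccnb1), -0.013 to 0.30 (E2f1), -0.10 to 0.15 (Ccnd1), -0.15 to 0.65 (Ccnd2) and -0.27 to 0.16 (Cdkn1b). The named genes include those picked for low p, so 10 of 30 does not stand for all members. Members outside the named genes turned direction too, among them Mcm3, Cdc6, Ccna2, Kif20a, Tpx2 and Cenpf, while others such as Mcm7, Kif23 and Bub1b did not. The cause was not tested. Under 50 reads per library for most mitotic genes limits what single genes can show.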
